A study of Capra hircus with 3 samples.

Results

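Smooth muscle and pericyte genes of the blood vessel wall are described here in the long back muscle of goats. The 8 members are ACTA2, MYH11, TAGLN, CNN1 and MYLK, whose products build or switch on the contractile apparatus of smooth muscle, and RGS5, PDGFRB and NOTCH3, which carry or temper signals in pericytes and arterial smooth muscle. Each was found by its product name in the authors' table, and each name matched 1 entry, so that all 8 members were measured among 24689 entries. All 8 passed the filter used below, a mean of at least 1 FPKM (fragments counted on a gene, scaled by its length and by the library's total) over the libraries. The reference symbol of each entry was the same as the name given here.

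The libraries came from the longissimus dorsi of Capra hircus at 2 months (kid), 9 months (youth) and 24 months (adult), with 1 library per stage and no treatment named in the labels. Not given in the sources used here: breed, sex and how many animals stand behind a library. With 1 library per stage there was no test between stages and no replicate error. Differences therefore describe these 3 libraries, and age cannot be told apart from any other difference between the animals or tissue pieces.

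Small arteries and arterioles in muscle are wrapped in smooth muscle cells, and capillaries in the thinner pericytes, together called mural cells. Smooth muscle contracts when calcium and calmodulin switch on the kinase encoded by MYLK, which phosphorylates the regulatory light chain of myosin and so lets the smooth muscle heavy chain pull on alpha-smooth muscle actin. Platelet-derived growth factor B from the endothelium recruits mural cells through PDGFRB, and Notch ligands on endothelial cells act on NOTCH3 to keep arterial smooth muscle mature. The striated fibres that make up most of the tissue use other actin, myosin and kinase genes.

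The depth worked out from the FPKM steps was 15829474 fragments for kid, 14920689 for youth and 18399385 for adult. Every value of the 8 genes rested on at least 474 reads. Intervals below are exact 95% intervals of these reads, which cover counting error only and not differences between animals. The tissue label names longissimus dorsi, and 9 striated fibre genes with an entry summed to 54854 FPKM (kid), 63267 (youth) and 66915 (adult). The protocol text speaks of mammary tissue, whose myoepithelial cells also use several of the contractile genes. Of 12 genes of mammary epithelium and milk with an entry, 6 were listed at 0 in every library, among them the 5 milk protein genes and the basal keratin gene KRT14. KRT5 was listed at 0 in kid and youth and at 0.0492 FPKM in adult. TP63 was listed at 12.2, 11.1 and 4.42 FPKM in kid, youth and adult. KRT8, a luminal keratin gene, was listed at 8.05, 2.95 and 2.87 FPKM. The remaining luminal genes with an entry stood lower than KRT8 in every library. For KRT18 the values were 3.11 (kid), 1.44 (youth) and 1.17 (adult) FPKM. CDH1 reached 0.620, 0.269 and 0.376 FPKM in the same order, and EPCAM 0.0673, 0.143 and 0.0386 from 3, 6 and 2 reads. Thus not all of these mammary epithelium genes were at 0. Their part in the values of the contractile genes was not tested.

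The contractile genes were lower in the youth library than in both others. ACTA2 (gene 102191486), alpha-smooth muscle actin, stood at 137 FPKM in kid, at 95.8 in youth and at 147 in adult, from 3037, 2002 and 3799 reads. MYH11 (gene 102177493), the smooth muscle myosin heavy chain and the most restricted marker of differentiated smooth muscle in this set, stood at 28.6, 14.5 and 27.6 FPKM, from 2983, 1423 and 3350 reads. The youth value of MYH11 was about as far below the kid value as below the adult value, and those 2 lay close together. TAGLN (gene 102185937), an actin-binding protein also called SM22, stood at 167, 116 and 153 FPKM.

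CNN1 (gene 102190599), calponin 1, which binds actin and restrains the myosin motor, stood at 26.2 FPKM in kid, at 21.2 in youth and at 25.04 in adult. MYLK (gene 102190641), the light chain kinase of smooth muscle and non-muscle cells, stood at 13.1, 9.39 and 10.7 FPKM. In both genes the youth library was again the lowest. The same gene makes the short product telokin, and reads from that product were not told apart from kinase reads in these values.

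Of the receptor and signalling genes, NOTCH3 was below both other libraries in youth beyond its counting intervals, and RGS5 and PDGFRB were not. RGS5 (gene 102177576), which shortens G-protein signals and is a widely used pericyte marker, stood at 80.9 FPKM in kid, at 78.7 in youth and at 97.8 in adult. NOTCH3 (gene 102189202), the Notch receptor of arterial smooth muscle and pericytes, stood at 8.02, 6.24 and 9.05 FPKM. PDGFRB (gene 102184426), the receptor that mural cells and also fibroblasts carry, stood at 21.1, 19.6 and 16.4 FPKM. RGS5 and NOTCH3 were highest in adult, whereas PDGFRB was lowest there. For PDGFRB the counting intervals of kid (19.9 to 22.3) and youth (18.5 to 20.9) overlapped, and the adult interval (15.4 to 17.4) lay below both.

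**Figure D1:**
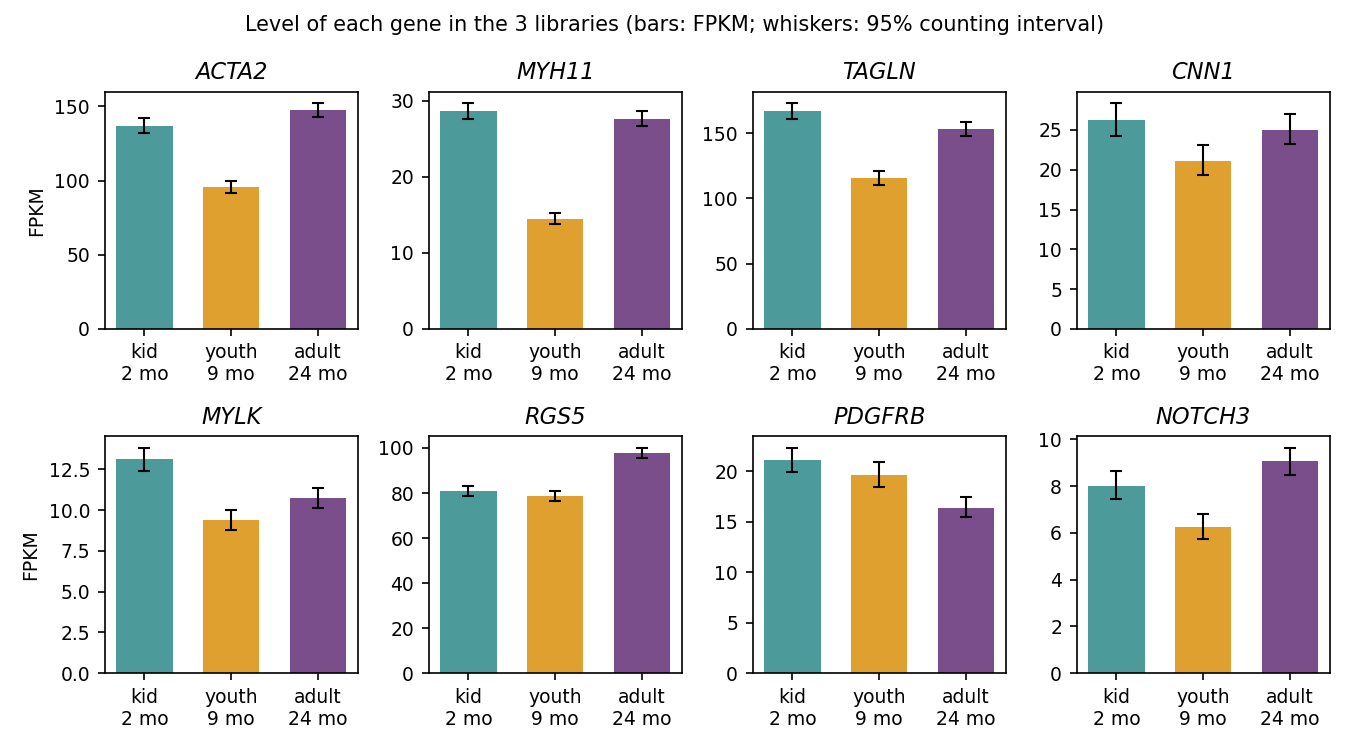
Level in FPKM (vertical axes, each starting at 0) of the 8 genes in the kid, youth and adult libraries, 1 bar per library, with whiskers for the 95% counting interval of the reads. The youth bar is the lowest for 7 genes, with MYH11 at 14.5 FPKM against 28.6 in kid and 27.6 in adult, and the adult bar is the lowest for PDGFRB.

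Per gene length, TAGLN was the most abundant of the 8 in each library, followed by ACTA2 and RGS5, while MYLK and NOTCH3 were the least abundant. In adult the counting intervals of TAGLN (148 to 158 FPKM) and ACTA2 (143 to 152) overlapped. Between these ends the order changed with the library. MYH11 ranked above CNN1 and PDGFRB in kid and adult, but below both in youth, where its interval (13.7 to 15.3) was apart from those of CNN1 (19.3 to 23.1) and PDGFRB (18.5 to 20.9). The intervals of CNN1 and PDGFRB overlapped in youth, and those of MYH11 and CNN1 overlapped in kid and in adult. Summed, the 8 genes held 0.0913% (kid), 0.0693% (youth) and 0.0895% (adult) of all FPKM.

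The youth library was compared with the kid library to see how the vessel wall genes differ between 2 and 9 months. MYH11 was 1.98-fold lower in youth (interval 1.85 to 2.11), TAGLN 1.44-fold lower (1.36 to 1.53), ACTA2 1.43-fold lower (1.35 to 1.51) and MYLK 1.40-fold lower (1.28 to 1.52). NOTCH3 was 1.29-fold lower (1.15 to 1.44) and CNN1 1.24-fold lower (1.10 to 1.40). The interval of MYH11 was apart from those of the other 7 genes. RGS5, at 1.03-fold lower (0.985 to 1.07), and PDGFRB, at 1.07-fold lower (0.986 to 1.17), were not apart from equality at this depth.

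Of the 8 genes, 6 were lower in youth than in kid beyond counting error, against 26.9% of the 12121 genes averaging at least 1 FPKM. Among the 7673 genes averaging at least 5 FPKM, which resemble the 8 more closely in depth, that background was 29.8%. On the scale of log2(FPKM + 1), the median difference of the 8 was -0.38, of the 5 contractile genes -0.51 and of the 3 receptor and signalling genes -0.10, beside -0.08 over all genes. Only MYH11 of the 8 was at least 1.5-fold lower on that scale (-0.94), which 3.77% of all genes were. RGS5 (-0.04) and PDGFRB (-0.10) lay at the middle of all genes, at percentiles 58.0 and 47.1, whereas MYH11 lay at percentile 0.800, TAGLN at 5.26 and ACTA2 at 5.68. The sign of RGS5 was not stable, being 0.02 with the libraries rescaled without their 20 most abundant genes and 0.06 with median-of-ratios scaling.

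The adult library was compared with the youth library for the step from 9 to 24 months. This comparison shares the youth library with the one above, so any feature particular to that library enters both with opposite sign. MYH11 was 1.91-fold higher in adult (1.79 to 2.03), ACTA2 1.54-fold (1.46 to 1.63), NOTCH3 1.45-fold (1.30 to 1.62) and TAGLN 1.32-fold (1.25 to 1.40). RGS5 was 1.24-fold higher (1.20 to 1.29), CNN1 1.18-fold (1.05 to 1.33) and MYLK 1.14-fold (1.05 to 1.25). PDGFRB differed from the other 7 in direction, being 1.20-fold lower in adult (1.10 to 1.31).

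Thus 7 of 8 genes were higher in adult than in youth beyond counting error, against 22.3% of all genes and 27.1% of those averaging at least 5 FPKM. One gene, PDGFRB, was lower beyond counting error, which 27.0% of all genes were. The median difference on the log2(FPKM + 1) scale was 0.36 over the 8, 0.40 over the contractile genes and 0.31 over the receptor and signalling genes, beside -0.02 over all genes. MYH11 (0.89, percentile 98.5) and ACTA2 (0.62, percentile 95.5) were at least 1.5-fold higher on that scale, which 5.40% of all genes were. ACTA2 was below that fold, between 0.55 and 0.57, in 3 of 9 alternative scalings and settings, while MYH11 stayed above it in all 9, between 0.74 and 0.96. Alternatives that change only the filter could not move either gene. In bulk tissue, fewer cells of a type and less RNA per cell cannot be told apart for any of these genes.

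**Figure D2:**
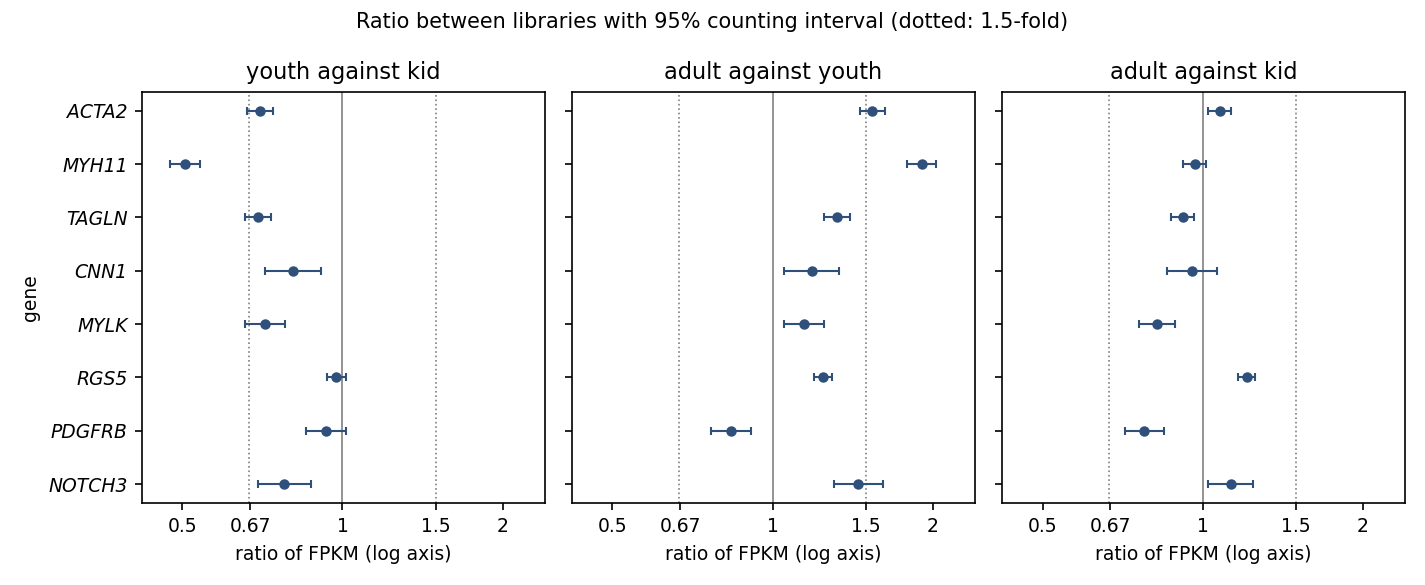
Ratio of FPKM between libraries (horizontal log axes) for the 8 genes in the 3 comparisons, with points for the ratio, bars for its exact 95% counting interval and dotted lines at 1.5-fold. MYH11 stands farthest from equality in the first 2 panels, at 1.98-fold lower and 1.91-fold higher, and is close to equality in the third.

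Between the adult and kid libraries, 24 and 2 months of age, ACTA2, MYH11, TAGLN and CNN1 were close. MYH11 was 1.04-fold lower in adult (0.985 to 1.09) and CNN1 1.05-fold lower (0.938 to 1.17), neither apart from equality at this depth. ACTA2 was 1.08-fold higher (1.03 to 1.13) and TAGLN 1.09-fold lower (1.04 to 1.15). The larger differences were in MYLK, 1.22-fold lower (1.13 to 1.32), RGS5, 1.21-fold higher (1.16 to 1.26), PDGFRB, 1.29-fold lower (1.18 to 1.40), and NOTCH3, 1.13-fold higher (1.02 to 1.24).

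In that comparison 3 of 8 genes were higher beyond counting error (16.7% of all genes) and 3 were lower (34.6% of all genes). These counts and shares rest on the deposited scaling and were not recomputed under others. The intervals of ACTA2 and NOTCH3 began close to equality, at 1.03 and 1.02. None of the 8 was 1.5-fold apart on the log2(FPKM + 1) scale, which 9.24% of all genes were. The median difference was -0.06 over the 8 and -0.10 over all genes. Median-of-ratios scaling moved the median of all genes by 0.12 in this comparison. Under it the values of MYH11 (-0.05), CNN1 (-0.06) and TAGLN (-0.12) became 0.09, 0.07 and 0.01, so their direction between adult and kid is not settled. RGS5, NOTCH3 and ACTA2 kept a positive sign and PDGFRB and MYLK a negative one under all 9 alternatives. Those alternatives that change only the filter could not alter these values.

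**Figure D3:**
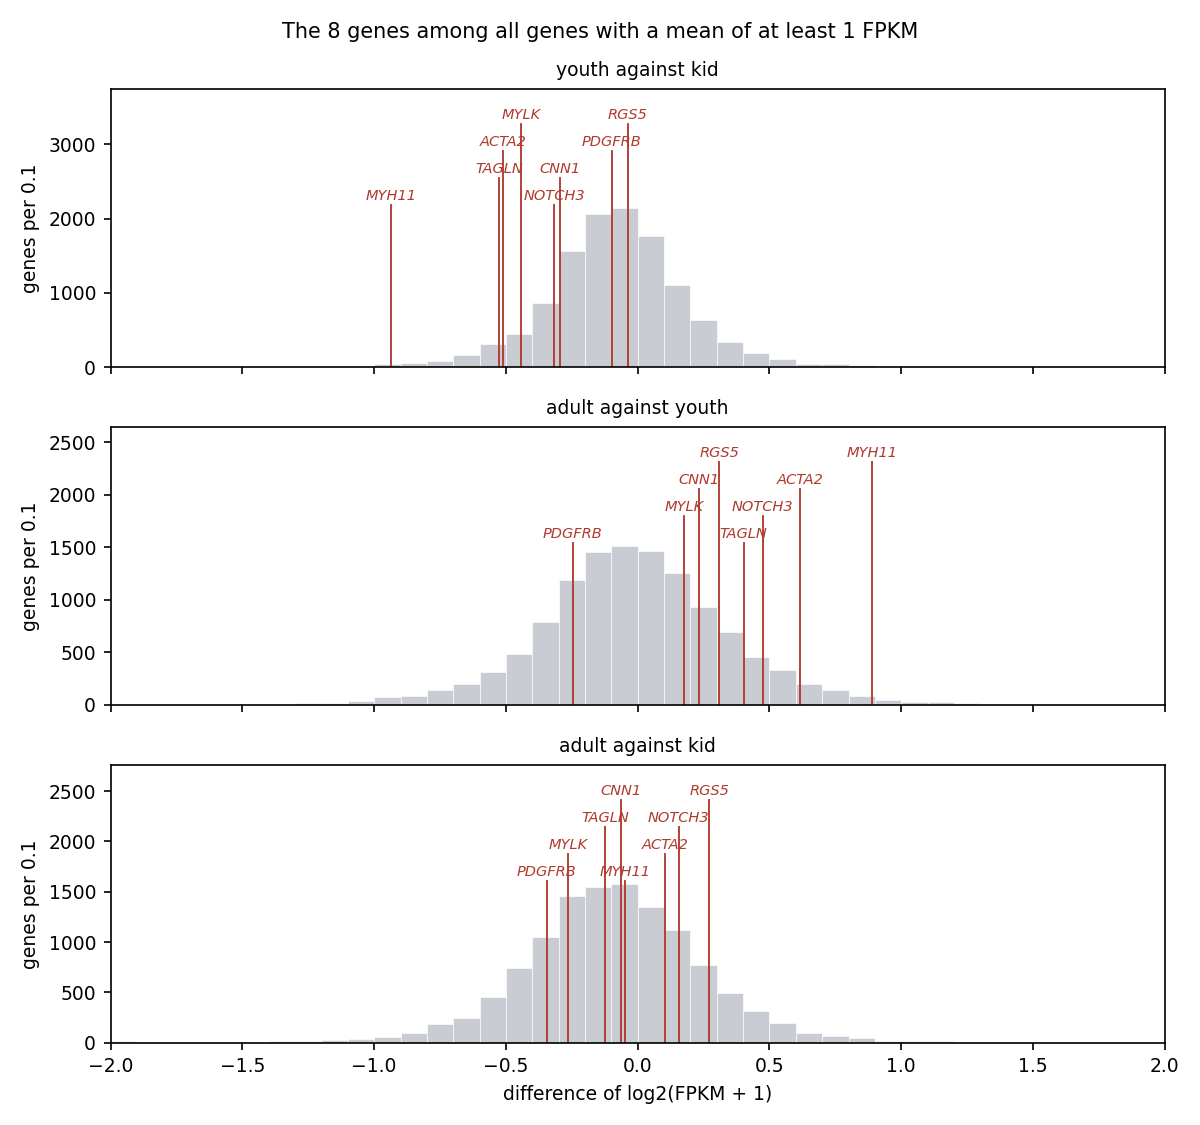
Number of genes per 0.1 of the difference of log2(FPKM + 1) (grey bars, 12121 genes averaging at least 1 FPKM) in each comparison, with red lines at the 8 genes, whose height carries no value. The end bars also hold the 12, 23 and 19 genes beyond the axis in the 3 panels from top to bottom. The contractile genes lie in the lower part for youth against kid, with MYH11 at -0.94, in the upper part for adult against youth, with MYH11 at 0.89, and nearer the middle for adult against kid.

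Ratios within a library do not depend on how the libraries are scaled. The 5 contractile genes together stood at 338% of the 3 receptor and signalling genes in kid, 245% in youth and 295% in adult, in summed FPKM. Relative to RGS5, MYH11 was at 35.4%, 18.4% and 28.3%, and ACTA2 at 169%, 122% and 151%. TAGLN was at 206%, 147% and 156% of RGS5, CNN1 at 32.4%, 26.9% and 25.6%, and MYLK at 16.2%, 11.9% and 10.99%. Relative to RGS5 the youth library was thus lowest for MYH11, ACTA2 and TAGLN, and the adult library for CNN1 and MYLK. Within the contractile genes, MYH11 was at 20.9%, 15.1% and 18.8% of ACTA2, while TAGLN was at 122%, 121% and 104% of ACTA2. MYLK was at 9.58%, 9.81% and 7.29% of ACTA2, lower in adult than in the other two. NOTCH3 was at 38.0%, 31.8% and 55.2% of PDGFRB, highest in adult.

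Endothelial genes give a second yardstick from the vessel wall, since mural cells sit on endothelium. The 13 endothelial markers with an entry summed to 367 FPKM in kid, to 330.2 in youth and to 330.6 in adult, and none of them was at 0. Against that sum, MYH11 was at 7.79%, 4.39% and 8.36%, ACTA2 at 37.3%, 29.0% and 44.6%, and TAGLN at 45.4%, 35.0% and 46.3%. The youth library was lowest for all 5 contractile genes and for NOTCH3. RGS5 took another order, from 22.0% in kid to 23.8% in youth and 29.6% in adult, and PDGFRB stood at 5.74%, 5.95% and 4.96%. The median difference of the endothelial markers was -0.10 from kid to youth, -0.04 from youth to adult and -0.17 from kid to adult. Single endothelial genes varied: VWF, the clotting factor carrier stored in endothelium, was at 37.0, 25.4 and 32.3 FPKM, while PECAM1, a junction protein, was at 72.7, 65.3 and 54.1.

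**Figure D4:**
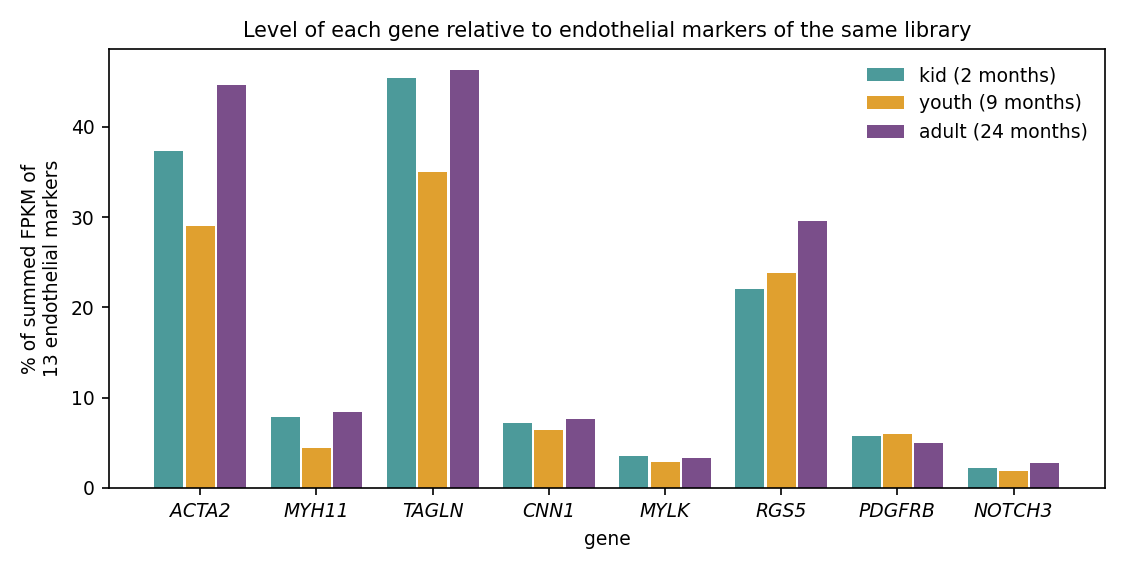
Level of each gene as a percentage of the summed FPKM of 13 endothelial markers in the same library (vertical axis from 0), with 1 bar for each of the kid, youth and adult libraries. Youth is lowest for ACTA2, MYH11, TAGLN, CNN1, MYLK and NOTCH3, for example 4.39% for MYH11 against 7.79% and 8.36%, while RGS5 is highest in adult at 29.6%.

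Markers of other cell types in the tissue also differed between these libraries, and not all in the same order. Fibroblast markers, all 11 above 0, summed to 1199 FPKM in kid, to 1427 in youth and to 1017 in adult. Their median difference between youth and kid was -0.15, so that the sum and the median differ in sign. Beyond counting error 6 of the 11 were lower and 5 higher, where 26.9% and 11.6% of all genes were. Macrophage markers, 8 with an entry, summed to 71.6, 79.6 and 39.8 FPKM, and Schwann cell markers, 6 of 6, to 231, 136 and 93.2 FPKM. Adipocyte markers, 6 of 6, summed to 350, 195 and 202 FPKM and tendon markers, 5 with an entry, to 18.6, 16.7 and 32.8 FPKM. The sums of adipocyte and tendon markers were lowest in youth, as the contractile genes were. Of the markers averaging at least 1 FPKM, 3 of 5 for adipocytes and 2 of 4 for tendon were lowest there, beside 37.3% of all genes. Adipocyte medians were -1.30 in youth against kid and 0.40 in adult against youth, in the directions of the 8 genes and larger in size. Tendon medians were -0.12 and 1.54. Macrophage (0.12 and -0.85) and Schwann cell medians (-0.68 and -0.54) were negative in adult against youth. The part of tissue composition in the values of the 8 genes was not tested.

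Several of the 8 genes have close relatives in muscle, and the counting of reads that match more than 1 gene is left unstated by the labels. The muscle actins are nearly identical proteins with similar coding sequences, so that the value of ACTA2 is uncertain. Skeletal actin (ACTA1) was at 14480, 17994 and 21435 FPKM in kid, youth and adult, so that ACTA2 stood at 0.946%, 0.532% and 0.688% of it. ACTA2 did not follow the order of ACTA1, which was higher in each older library. Cardiac actin (ACTC1) was at 34.0, 17.3 and 22.5 FPKM, lowest in youth as ACTA2 was.

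For the other genes most of the relatives named here took different orders. The non-muscle heavy chain gene MYH9 was at 49.3, 48.1 and 37.6 FPKM, and MYH10 at 8.31, 8.86 and 11.4 FPKM, neither of them with the youth minimum of MYH11. TAGLN2, found in many cell types, was at 83.0, 101 and 74.99 FPKM, highest in youth where TAGLN was lowest. The skeletal light chain kinase MYLK2 was at 354, 472 and 254 FPKM, also highest in youth. PDGFRA, the receptor of fibroblasts, was at 13.6, 10.95 and 9.82 FPKM, and like PDGFRB was lowest in adult. NOTCH1 and NOTCH4, at 5.42, 5.52 and 4.08 FPKM and at 7.82, 7.04 and 5.87 FPKM, were lowest in adult, while NOTCH3 was highest there. NOTCH2, at 5.34, 4.67 and 5.80 FPKM, had the order of NOTCH3.

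Further smooth muscle contractile genes were taken as a list of 23, all with a mean of at least 1 FPKM. In youth against kid, 8 were lower and 8 higher beyond counting error, where 26.9% and 11.6% of all genes were, with a median of -0.04. In adult against youth, 11 were higher and 8 lower, where 22.3% and 27.0% of all genes were, with a median of 0.05. Many of these genes are also made by striated fibres, for example the tropomyosin gene TPM2 at 6251, 6630 and 8990 FPKM, and in such genes the vessel wall cannot be told apart from the fibres. ACTG2, the gamma actin of gut smooth muscle, was at 9.32 FPKM in kid, at 4.50 in youth and at 15.4 in adult, from 187, 85 and 360 reads. It was 2.07-fold lower in youth than in kid (1.60 to 2.71) and 3.43-fold higher in adult than in youth (2.70 to 4.40), with the same reservation about actin reads as for ACTA2. MYL9, the regulatory light chain that the MYLK kinase acts on, was at 40.3, 26.9 and 39.3 FPKM, lower in youth than in kid by 0.57 on the log2(FPKM + 1) scale and 1.46-fold higher in adult than in youth (1.32 to 1.62). HSPB6, a small heat shock protein of muscle cells, was at 422, 397 and 901 FPKM.

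Around the kinase, 20 genes of light chain phosphorylation were measured, MYLK and MYL9 among them. In youth against kid, 9 were lower and 5 higher beyond counting error, where 26.9% and 11.6% of all genes were (median -0.16). Adult against youth, 9 were lower and 6 higher, where 27.0% and 22.3% of all genes were (median -0.14). The calmodulin genes CALM3 and CALM2, whose product switches the kinase on and serves every cell type, were highest in youth. CALM3, which the authors' table leaves uncharacterized and the reference table names, was at 176, 272 and 203 FPKM and CALM2 at 205, 264 and 142 FPKM. The phosphatase subunit gene PPP1R12B, which belongs to the complex that reverses the reaction, was at 15.8, 13.9 and 20.7 FPKM and the inhibitor gene PPP1R14A at 11.5, 7.83 and 7.75 FPKM. Both were chosen after their values were seen. PPP1R12B was lowest in youth, and PPP1R14A was about equal in youth and adult. The related subunit gene PPP1R12A was more abundant, at 29.5, 24.4 and 21.2 FPKM, and did not have the youth minimum. It was lower in youth than in kid, and lower again in adult, beyond counting error. PPP1R12C was also lowest in adult, with differences within counting error. PPP1R12A and PPP1R12C were likewise named after their values were seen.

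Regulators of the smooth muscle programme were measured as a list of which 8 genes passed the filter, with medians of -0.16, -0.09 and -0.30 in youth against kid, adult against youth and adult against kid. In youth against kid 4 of 8 were lower and none higher beyond counting error, beside 26.9% and 11.6% of all genes. In adult against youth 2 were lower and 1 was higher, beside 27.0% and 22.3%, so that neither share was above that of all genes. KLF4, a factor that holds back smooth muscle genes in cultured cells, was at 46.4, 30.4 and 19.7 FPKM, and MEF2C, shared with striated muscle, at 104, 91.0 and 87.9 FPKM. EBF1 was at 9.43, 5.44 and 7.23 FPKM, lowest in youth. Myocardin (MYOCD), the coactivator that drives contractile genes with serum response factor, did not pass the filter. It was at 1.37, 1.09 and 0.379 FPKM from 87, 65 and 28 reads, with the adult level 2.86-fold below the youth level (1.81 to 4.63), opposite in direction to MYH11 and ACTA2. Serum response factor itself (SRF) was at 21.3, 22.8 and 23.5 FPKM. GATA6, also below the filter, was at 0.841, 0.308 and 0.699 FPKM from 29, 10 and 28 reads. Its adult level was 2.27-fold above the youth level (1.07 to 5.24), in the direction of MYH11 and ACTA2. MYOCD, SRF and GATA6 were chosen after their values were seen.

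Further pericyte genes, of which 17 averaged at least 1 FPKM, were lower in youth than in kid in 17 of 17 cases, where 64.3% of all genes were lower. Several of these differences were small, for example -0.03 for HIGD1B and -0.04 for RGS4. Median-of-ratios scaling raised the median of all genes by 0.09 in this comparison. Both the count and the share of all genes therefore depend on scaling, and the count was not recomputed. Beyond counting error 6 of the 17 were lower and none was higher, where 26.9% and 11.6% of all genes were. Their median was -0.19. In adult against youth 5 were lower and 1 was higher beyond counting error (27.0% and 22.3% of all genes), with a median of -0.03, where RGS5 was higher and PDGFRB lower. ABCC9, a subunit of the potassium channel of pericytes and also of muscle fibres, was at 36.1, 31.5 and 28.1 FPKM. The gap junction gene GJC1 was at 8.28, 5.90 and 4.10 FPKM, the angiotensin receptor gene AGTR1 at 6.11, 5.48 and 3.03 FPKM and the peptidase gene ANPEP at 2.53, 1.95 and 1.34 FPKM. In these 4 genes the adult library was the lowest, as for PDGFRB and unlike RGS5. By any amount, 6 of the 17 were higher and 11 lower in adult than in youth, where 52.7% of all genes were lower. CD248, at 7.48, 7.13 and 9.90 FPKM, had the order of RGS5 and was 1.39-fold higher in adult than in youth (1.18 to 1.63). HIGD1B and RGS4 also had that order, within counting error. CD248, HIGD1B and RGS4 were chosen after their values were seen.

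Genes of the PDGF pathway, 7 in all, had medians of -0.07, -0.14 and -0.29 in the 3 comparisons. PDGFB, the ligand that acts on PDGFRB, was at 17.6, 17.1 and 13.4 FPKM. Its adult level was 1.28-fold below the youth level (1.14 to 1.44), close to the 1.20-fold of its receptor. PDGFRL, a receptor-like gene, was at 10.1, 14.4 and 8.02 FPKM, highest in youth. In adult against youth 4 of the 7 were lower and 1 higher beyond counting error, beside 27.0% and 22.3% of all genes.

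The Notch pathway list had 20 genes over the filter, NOTCH3 included. In youth against kid 9 were lower and 3 higher beyond counting error, beside 26.9% and 11.6% of all genes (median -0.15). Adult against youth, 7 were lower and 3 higher, NOTCH3 among the latter, beside 27.0% and 22.3% of all genes (median -0.13). The target gene HES1, which answers to Notch and to other signals, was at 35.1, 15.8 and 30.8 FPKM. HES1 was 2.23-fold lower in youth than in kid (1.85 to 2.69) and 1.95-fold higher in adult than in youth (1.62 to 2.36). HEYL, a Notch target of mural cells, was instead highest in youth, at 8.71, 13.9 and 8.42 FPKM, and HEY1 was at 9.56, 8.43 and 5.37 FPKM. RFNG, which modifies Notch receptors, was the most abundant of the list at 61.3, 66.1 and 69.4 FPKM.

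RGS5 was by far the most abundant of the 10 RGS genes over the filter. The next, RGS3, was at 14.3, 16.4 and 12.1 FPKM against 80.9, 78.7 and 97.8 for RGS5, and was named for this rank. In adult against youth 5 of the 10 were lower beyond counting error and RGS5 alone was higher, beside 27.0% and 22.3% of all genes. RGS16 was at 1.89, 2.01 and 0.758 FPKM, RGS14 at 1.51, 2.51 and 1.09 FPKM, and RGS1, best known from white blood cells, at 7.52, 4.60 and 3.07 FPKM.

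**Figure D5:**
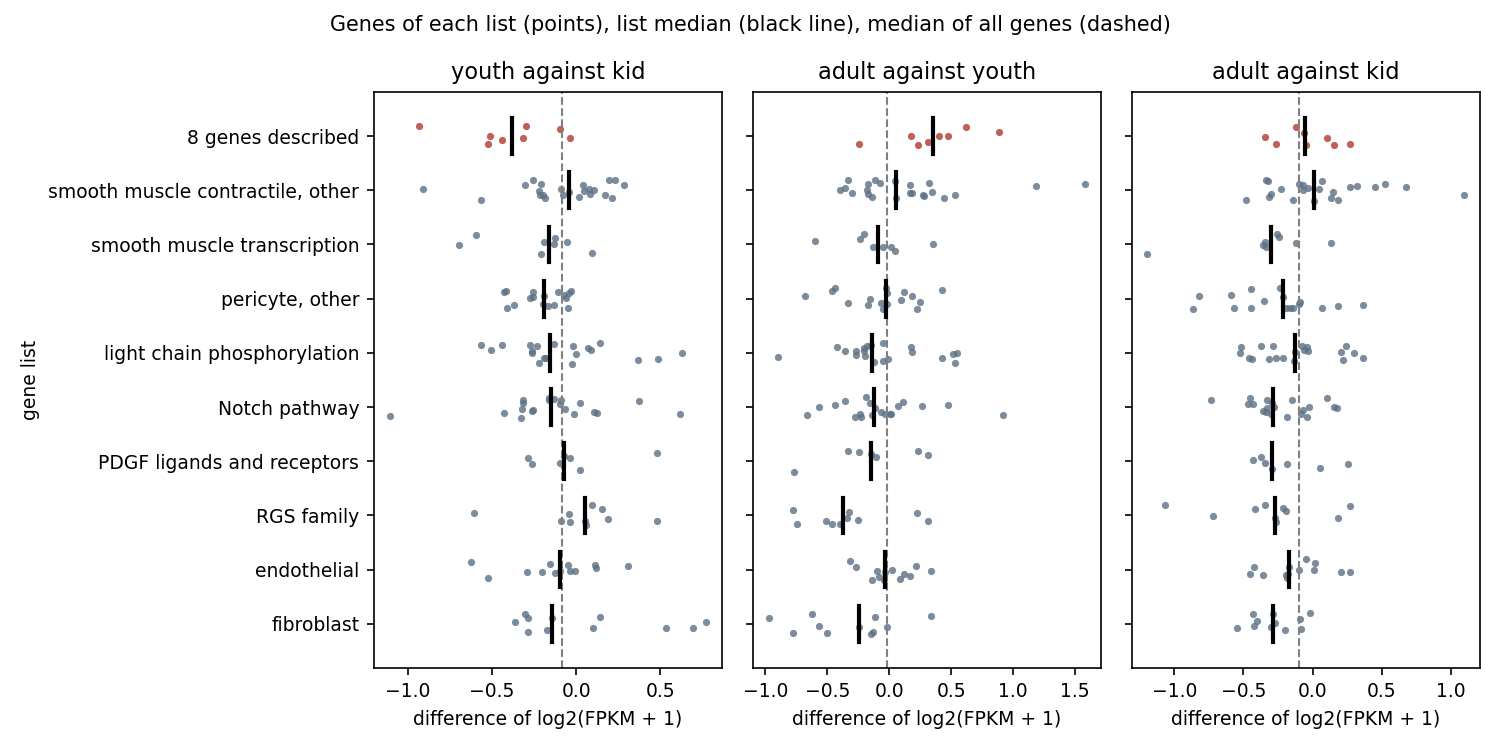
Difference of log2(FPKM + 1) (horizontal axes) for the 8 genes described (red) and for the genes of each related list with a mean of at least 1 FPKM (grey points), with black lines at list medians and dashed lines at the median of all genes. Some of the 8 genes also belong to a related list. The median of the 8 genes is -0.38 in youth against kid and 0.36 in adult against youth. The other lists shown have medians between -0.19 and 0.05 and between -0.37 and 0.05. Not shown are adipocyte (-1.30 and 0.40), tendon (-0.12 and 1.54), Schwann cell (-0.68 and -0.54), macrophage (0.12 and -0.85) and striated fibre markers (0.19 and 0.05).

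Taking all genes, 37.3% were lowest in the youth library and 45.2% in the adult library, where 7 and 1 of the 8 genes were. The kid library was the highest for 44.4% of all genes and for 5 of the 8, and the adult library for 30.0% and for 3 of the 8. The genes whose profile over the 3 libraries was nearest to the median of the 8 were sought among 6825 others with a symbol and a mean of at least 5 FPKM, by the Euclidean distance of both steps on the log2(FPKM + 1) scale. They were SNRPA, UBXN8, SEPT8, GPD1L and PHKG2, at distances of 0.0103 to 0.0217. SNRPA, a splicing protein gene, was at 12.5, 9.38 and 12.2 FPKM, and PHKG2, a subunit gene of phosphorylase kinase, at 7.11, 5.19 and 6.82, where the counting interval of PHKG2 included equality in both steps. With 3 libraries a profile has only 2 steps, so such nearness is a description.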

How the data were processed

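Total RNA was sequenced from 3 libraries, 1 per stage. The authors deposited 1 table of FPKM values with a column per stage, and the submitters' processing notes name FastQC, TopHat2 and DESeq without version, role or order. Not given in the sources used here: the genome build, the annotation, strandedness and the treatment of reads that match several genes. The effect of shared reads on these values was not measured.

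Totals, gene lengths and reads were worked out from the steps between FPKM values. The tolerance was 5e-05 reads, plus 6e-10 times the reads for rounding, and all 16054 entries above 0 in every library gave whole reads. Where reads and length share a factor, too few reads are returned and intervals are too wide. Ratios have exact Clopper-Pearson 95% intervals of the reads of both libraries. Differences were taken on log2(FPKM + 1), which understates those of low genes, over 12121 genes averaging at least 1 FPKM. Recovery and intervals were tested on simulated data with known totals and folds. Those data were drawn with counting error only from the recovered lengths and totals, so they could not check the totals of the real libraries. Python 3.11.15, numpy 2.4.6, pandas 2.3.3, SciPy 1.17.1 and matplotlib 3.10.9 were used.

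Entries were named through a RefSeq gene table of another assembly, which 21743 of 24689 entries matched, and otherwise by product text, which also decided for KRT8, where symbol and product differed. From each list the most abundant gene and the 3 with the largest difference could be named. The members, lists and alternatives were chosen with earlier results of these data known, and the mammary epithelium genes later. Promoter and protein sequences were not analysed here.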

Additional observations from a re-analysis of the deposited data

How the results depend on the processing

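The 6 summary values of the 8 genes were recomputed under 9 alternatives each, and 49 of the 54 recomputed values stayed within the median counting interval of the genes or within 1.5 times the reported count. Alternatives that change only the filter (none, or a mean of at least 5 FPKM) could not move any value, since all 8 genes pass either way. The counts of unmoved values include them. The count of genes at least 1.5-fold apart between adult and youth was 1 in place of 2 with the libraries rescaled to their mean FPKM sum, rescaled without the 20 most abundant genes, or quantile-normalized, since ACTA2 is then below the threshold. The median difference between adult and kid, reported as -0.06, was 0.078 with median-of-ratios scaling and 0.051 with upper-quartile scaling. The same scalings raised the median of all genes in this comparison by 0.12 and 0.09. The cause was not tested. Of the 216 recomputed values of single genes, 18 moved beyond their counting interval, and none that was reported as 1.5-fold apart changed sign. No paired analysis was possible because each stage has 1 library, and leaving out a library would leave a stage without a value. At the depth of these libraries, differences of RGS5 and PDGFRB between youth and kid, and of MYH11 and CNN1 between adult and kid, could not be told from counting error.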
